A study of Nicotiana benthamiana with 28 samples.

Results

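The comparison here is between a pair of Nicotiana benthamiana lines whose RXEG1 construct differs, by its name, in one place. The substitution line is pRXEG1:RXEG1synΔ90-95/Q786AK791AΔCT-1, whose name gives the point changes Q786A and K791A. The deletion line is pRXEG1:RXEG1synΔ90-95/Δ786-792ΔCT-1, whose name gives a deletion, Δ786-792, that spans both of those positions. All 4 libraries of each line were taken, which is 8 of the 28 libraries of the series. In each line 2 libraries came from mock-treated seedlings and 2 from seedlings given XEG1 protein, and the label of every library gives 12-day-old seedlings and 3 h of treatment. Both lines share the rxeg1 knockout background, the RXEG1 promoter, the Δ90-95 deletion and ΔCT, an abbreviation that the labels do not spell out. Each construct is represented by 1 line, so an effect of the construct and any other difference between the lines cannot be told apart. The other genotypes, used only as reference points, were wild type, the rxeg1 knockout, the sobir1/sobir1-like knockout and the lines ΔCT-1 and ΔCT-2, which carry RXEG1synΔCT in the rxeg1 knockout, each with 2 mock and 2 XEG1 libraries.

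RXEG1 is a receptor-like protein with leucine-rich repeats outside the cell, a transmembrane stretch and no kinase domain of its own. It binds XEG1, an enzyme that Phytophthora sojae, a pathogen of soybean, secretes and that cuts plant cell wall polymers. Binding starts a defence response that also needs partner receptor kinases, among them SOBIR1. The question the design sets is whether 2 ways of altering the same second site leave seedlings with the same transcript levels and the same response to the protein.

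Levels are TPM, a relative transcript abundance, which the authors deposited as 1 list per library; the unit divides reads by gene length and gives every library the same total, so sequencing depth is unknown and depth limits cannot be given. Of 59814 listed genes, 36381 averaged 1 TPM or more in the 8 libraries and were tested on the log2(TPM + 1) scale, where changes of low genes are understated. The gene identifiers come without names, so no gene below is given a role, the construct's own transcript was not measured here, and seedling tissue was not checked against marker genes. The labels do not say that replicates came from separate plants or batches, so p-values measure the spread between these libraries. Between 15486 and 16144 genes were listed at 0 per library, and 4.76% to 6.82% of TPM fell to the top 20 genes.

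The libraries separated first by replicate number and then by line. The first principal component held 40.2% of the variance and ran from -24.2 to -60.8 in the 4 libraries numbered 1 and from 22.8 to 45.8 in the 4 numbered 2. The second held 26.3% and placed the substitution line at 17.7 to 43.7 and the deletion line at -18.7 to -38.2. Mock and XEG1 libraries overlapped on both axes. Across genes, a mock and an XEG1 library of the same line and number correlated at 0.975 to 0.983, above the 0.956 to 0.973 between replicates of the same group. Mock and XEG1 libraries that share a line and a number were therefore more alike than replicates, and the fit across all 8 libraries treats them as independent.

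**Figure D1:**
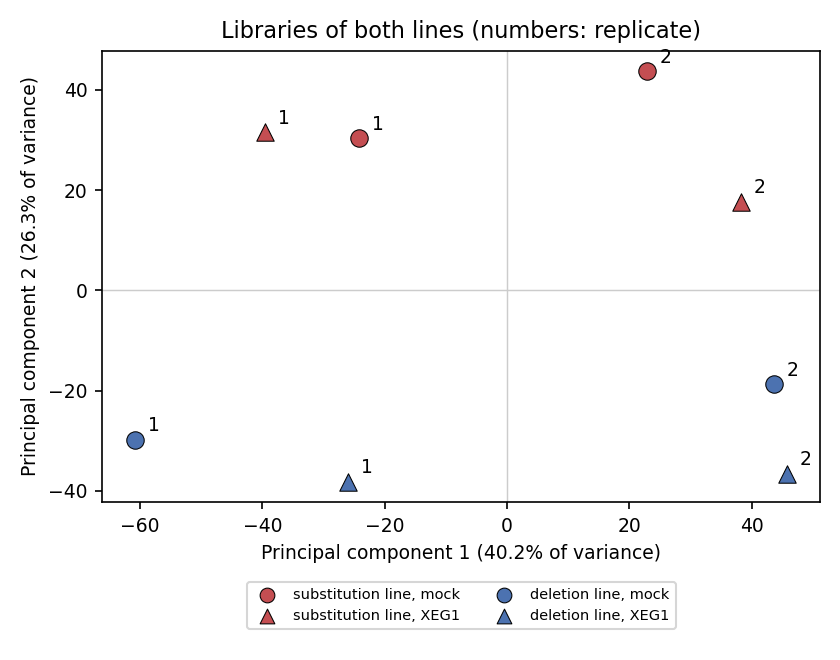
Each point is 1 of the 8 libraries placed on the first 2 principal components (units: component score of log2(TPM + 1)), coloured by line, shaped by treatment and labelled by replicate number. Replicate numbers 1 and 2 lie on opposite sides of the horizontal axis and the lines on opposite sides of the vertical axis.

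With treatment as a covariate, 583 of the 36381 genes differed between the lines (limma, adjusted p under 0.05), which is 1.6% of the genes tested. Of these, 140 were higher in the substitution line, 0.385% of the genes tested, and 443 were lower, 1.22%. The median log2 difference was 0.82 for the higher genes and -0.95 for the lower genes, against -0.04 over all tested genes. Of the called genes, 49 were higher and 200 lower by a log2 difference of 1 or more, together 0.684% of the genes tested. The 4 libraries of one line lay wholly beyond the 4 of the other for 134 of the 140 higher and 430 of the 443 lower genes; over all tested genes such separation occurred at 3.66% in the higher and 7.24% in the lower direction. The share called grew with abundance, from 0.639% of genes with a mean of 1 to 5 TPM to 5.72% of genes above 100 TPM. Among the called genes above 100 TPM, 45 were higher and 54 lower, whereas at 1 to 5 TPM 11 were higher and 66 lower. The 583 genes were spread over 539 scaffolds by their identifiers, and no scaffold held more than 3.

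This count rests on treating the libraries as independent. When the correlation of libraries of the same line and number was estimated, at 0.58, limma called 1 gene, and when those libraries were averaged it called none (0 genes; 2704 had an unadjusted p under 0.05, against 5782, 15.9%, with libraries taken as independent); leaving out 1 library at a time gave 8 to 733 calls, and median-ratio scaling of the libraries gave 159. The lowest count, 8, came without mock replicate 2 of the substitution line; 9 were called without either XEG1 library of the deletion line and 21 without XEG1 replicate 1 of the substitution line. The counts were 133 without mock replicate 2 of the deletion line, 184 without XEG1 replicate 2 of the substitution line and 233 without its mock replicate 1.

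**Figure D2:**
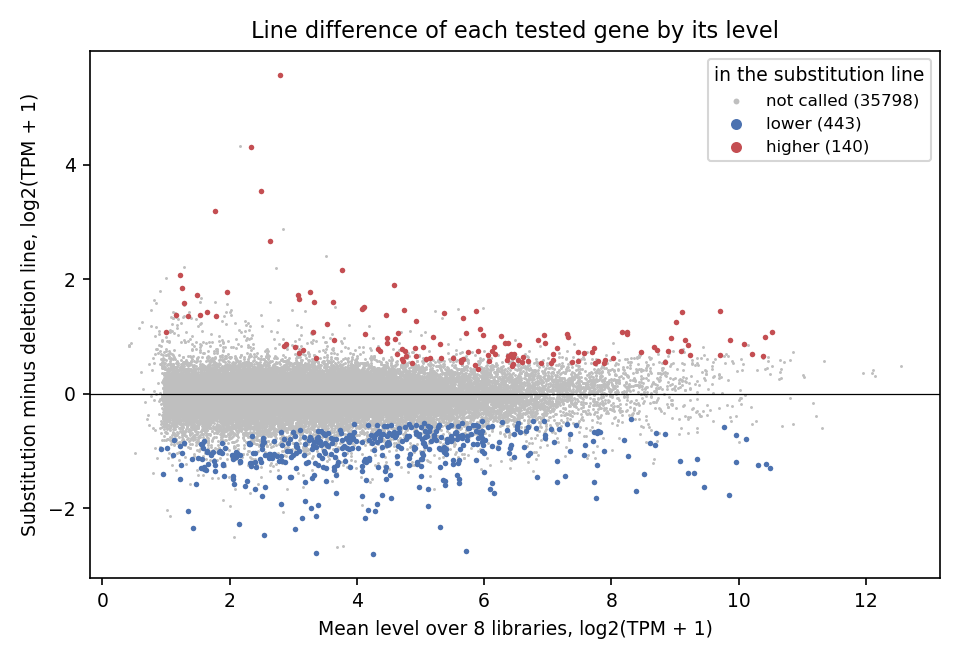
Each point is 1 of the 36381 tested genes; the horizontal axis is its mean log2(TPM + 1) over the 8 libraries and the vertical axis the log2 difference, substitution minus deletion line. The 443 lower genes (blue) outnumber the 140 higher genes (red), and the widest differences are on the higher side at low to middle levels.

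The gene called with the estimated correlation was Niben101Scf14771g01015, which is named because that count is 1. In the substitution line it held 3.06 and 2.88 TPM in mock and 2.98 and 3.85 TPM after XEG1, in the order of replicates 1 and 2. In the deletion line it held 17.5 and 17.2 TPM in mock and 17.2 and 19.2 TPM after XEG1. The groups did not overlap, and the log2 difference was -2.17 (SE 0.19 and adjusted p 0.0142 with the estimated correlation, limma; 0.00136 with libraries taken as independent). The 20 libraries of the other genotypes all lay above the substitution line, the lowest being wild type after XEG1 with 6.97 and 5.38 TPM, where mock held 34.5 and 29.8 TPM.

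Of the genes lower in the substitution line, the naming rule gave Niben101Scf04053g02006 and Niben101Scf01926g00002. Niben101Scf01926g00002 held 4.02, 1.07, 3.38 and 4.07 TPM in the substitution line (mock 1, mock 2, XEG1 1, XEG1 2) and 27.0, 23.4, 30.1 and 23.4 TPM in the deletion line. All 4 substitution libraries were low, and the log2 difference was -2.78 (SE 0.26, adjusted p 0.00857, limma; adjusted p 0.0999 with the estimated correlation). In the 20 libraries of the other genotypes this gene ranged from 12.7 to 31.1 TPM with a median of 22.3, so the deletion line lay inside that range and the substitution line below it. Niben101Scf04053g02006 held 6.21, 2.16, 10.5 and 9.26 TPM in the substitution line and 93.6, 26.9, 44.1 and 51.5 TPM in the deletion line in the same order, a log2 difference of -2.80 (SE 0.42, adjusted p 0.0258, limma; adjusted p 0.433 with the estimated correlation). It is a gene that XEG1 raised in wild type, from 123 and 51.2 TPM to 1226 and 1126 TPM. The substitution line lay near ΔCT-1, whose libraries held 5.80 to 15.7 TPM, and rxeg1 held 45.7 to 106 TPM.

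Of the genes higher in the substitution line, the rule gave Niben101Scf03814g00003 and Niben101Scf01240g10024. Niben101Scf03814g00003 held 47.6, 13.6, 33.6 and 4.63 TPM in the substitution line and 0.562, 0.951, 0.745 and 0.386 TPM in the deletion line, in the order mock 1, mock 2, XEG1 1 and XEG1 2. Every substitution library was above every deletion library, but the substitution libraries spread more widely on the log scale than their gap to the deletion line, with both replicate 1 values above both replicate 2 values. The log2 difference was 3.55 (SE 0.56, adjusted p 0.0287, limma; adjusted p 0.206 with the estimated correlation), or 4.64 within replicate 1 and 2.46 within replicate 2. Niben101Scf01240g10024 showed the same order, with 27.5, 8.61, 28.01 and 6.63 TPM in the substitution line and 1.17, 2.39, 1.29 and 1.24 TPM in the deletion line (log2 difference 2.66, SE 0.44, adjusted p 0.0339, limma; adjusted p 0.155 with the estimated correlation).

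High levels of these genes were also found in other genotypes. In ΔCT-1, Niben101Scf03814g00003 held 21.4 and 25.1 TPM in the replicate 2 libraries, and the sobir1/sobir1-like knockout held 14.6 TPM in mock replicate 2 and a listed 0 in XEG1 replicate 2. Niben101Scf00739g00002, which the rule names because it was listed at 0 in all 4 deletion libraries, held 134, 32.5, 119 and 8.53 TPM in the substitution line in the same order. It was also listed at 0 in all 4 rxeg1 libraries, held 55.8 TPM in mock replicate 2 of sobir1/sobir1-like, and reached 72.3 TPM in ΔCT-1; a listed 0 can be a failed estimate, so no fold is given. Over the 20 libraries of the other genotypes, 12 of the 139 other called higher genes had a Pearson correlation above 0.8 with Niben101Scf03814g00003, as had 26 of all tested genes, 0.0715%. The 3 most like it were Niben101Scf00739g00003 (r = 0.97), Niben101Scf00739g00002 (r = 0.93) and Niben101Scf01240g10022 (r = 0.93), a description over libraries that share genotypes and treatments. By their identifiers Niben101Scf00739g00003 and Niben101Scf00739g00002 share a scaffold, as do Niben101Scf01240g10022 and Niben101Scf01240g10024; the treatment of reads that match several gene copies is not stated in the labels.

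**Figure D3:**
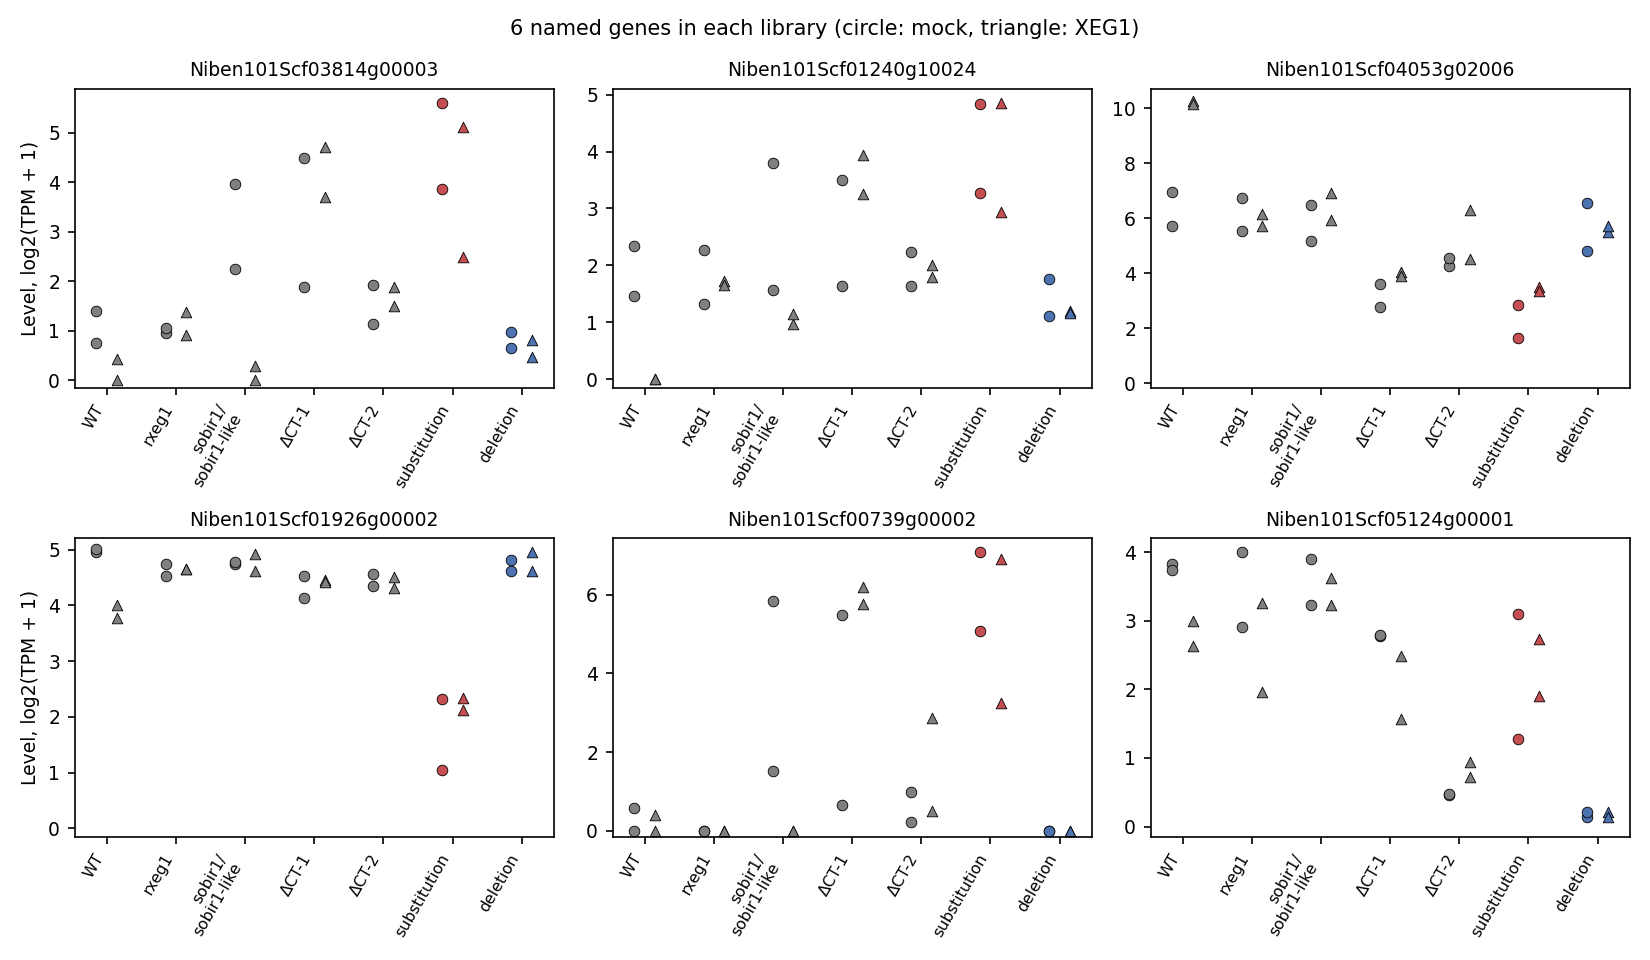
Level, log2(TPM + 1), of 6 named genes in each of the 28 libraries by genotype; circles are mock and triangles XEG1, red the substitution line, blue the deletion line and grey the other genotypes. Niben101Scf01926g00002 is low in the 4 substitution libraries alone, Niben101Scf05124g00001 is lowest in the 4 deletion libraries, and Niben101Scf03814g00003 and Niben101Scf00739g00002 are also high in ΔCT-1 libraries and in 1 sobir1/sobir1-like library.

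The rxeg1 knockout gave a common reference for both lines. In a fit of all 28 libraries, 9.56% of the tested genes differed between the substitution line and rxeg1, 3.53% higher and 6.03% lower, and 0.0192% differed between the deletion line and rxeg1, which is 7 genes, 6 of them higher, 0.0165% (limma, adjusted p under 0.05). With the correlation of libraries of the same genotype and number estimated over all 28, at 0.45, the counts were 767 genes for the substitution line, 187 higher and 580 lower, and 0 for the deletion line, where 357 had an unadjusted p under 0.05. Without its mock replicate 2 the substitution line had 1639 calls against rxeg1, and without rxeg1 mock replicate 1 it had 2260. For the deletion line the count was 2 without rxeg1 mock replicate 2, 3 without rxeg1 mock replicate 1 or XEG1 replicate 2, and 4 without either mock library of the substitution line, which enters only through the shared spread. Both comparisons use the same rxeg1 libraries; the direct test between the lines is the one given above. At the 140 genes higher in the substitution line, its median log2 difference from rxeg1 was 0.73 and that of the deletion line -0.07. At the 443 lower genes the medians were -0.85 and 0.05. The genes were chosen by the difference between the lines, so their separation is fixed by that choice, but the choice does not fix which line lies near the knockout.

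Without XEG1, ΔCT-1 lay closer to the substitution line than to the deletion line at 125 of the 140 higher and 367 of the 443 lower genes. For ΔCT-2 the counts were 75 and 139, for the sobir1/sobir1-like knockout 23 and 20, for rxeg1 3 and 25, and for wild type 4 and 12. The median mock difference of ΔCT-1 from the deletion line was 0.69 at the higher genes and -0.70 at the lower genes, compared with 0.83 and -0.88 in the substitution line itself. Wild type stood on the other side of the deletion line, with medians of -0.40 and 0.20. These positions describe the genes called, were not tested, and share the deletion line's mock libraries. The same counts were not made over all tested genes, so whether the likeness to ΔCT-1 is particular to the called genes is not known.

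**Figure D4:**
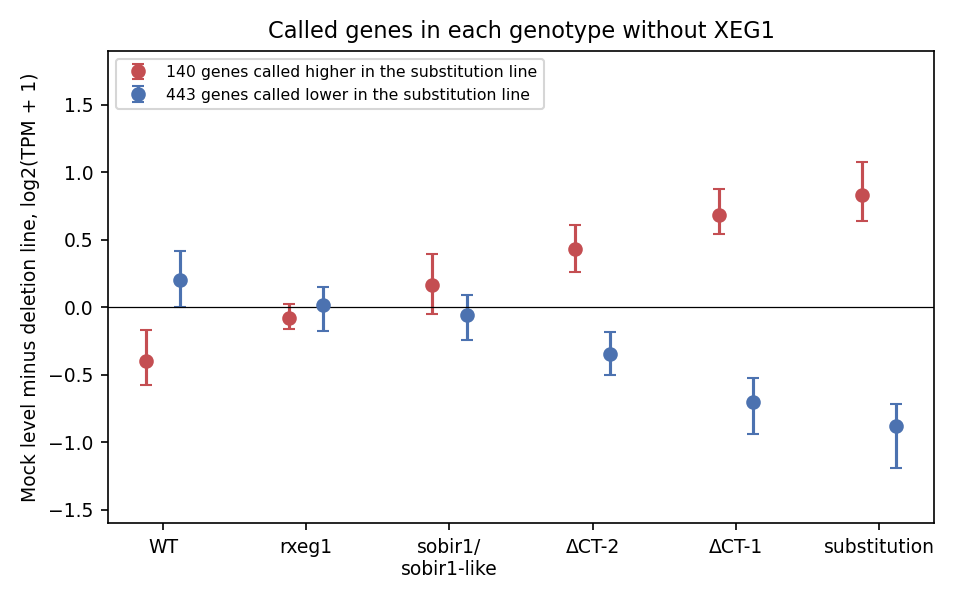
Mock level minus that of the deletion line, log2(TPM + 1), for the 140 genes called higher (red) and 443 called lower (blue) in the substitution line; points are medians over genes and bars the quartiles. ΔCT-1 lies nearest to the substitution line, and rxeg1 lies near 0, the deletion line.

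Levels beyond the range of all 24 other libraries were found mostly in the substitution line. Its 4 libraries lay above all others at 71 tested genes, 0.195%, and below all others at 53, 0.146%; 7 of the former and 26 of the latter were called between the lines. For the deletion line the numbers were 3 above, 0.00825%, and 1 below, 0.00275%, and all 4 were called. Above all others in the substitution line was Niben101Scf00149g02017, with 6.11, 3.79, 15.3 and 3.88 TPM against at most 2.08 TPM in the 20 libraries of the other genotypes and 0.672 to 1.62 TPM in the deletion line. Its log2 difference between the lines was 1.77 (SE 0.34, adjusted p 0.0429, limma; adjusted p 0.0730 with median-ratio scaling). Also above all others was Niben101Scf07883g00003, with a log2 difference of 1.85 (SE 0.18, adjusted p 0.00857, limma; adjusted p 0.00777 with median-ratio scaling). Below all others was Niben101Scf09044g01012, with 27.7, 13.7, 25.3 and 14.3 TPM in the substitution line, 274, 83.7, 136 and 105 TPM in the deletion line and at least 45.2 TPM elsewhere, a log2 difference of -2.74 between the lines. These genes were ranked for the position of the substitution line, so their levels are a description.

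The gene lowest in the deletion line was Niben101Scf05124g00001, with 0.104, 0.160, 0.157 and 0.097 TPM there and at least 0.382 TPM in every other library. The substitution line held 1.41, 7.56, 5.69 and 2.74 TPM and rxeg1 15.1, 6.50, 2.90 and 8.54 TPM, in the order mock 1, mock 2, XEG1 1 and XEG1 2. The log2 difference between the lines was 2.08 (SE 0.37, adjusted p 0.0372, limma; adjusted p 0.454 with the estimated correlation), and between the deletion line and rxeg1 it was -2.86 (adjusted p 0.00331, limma; adjusted p 0.205 with the estimated correlation). ΔCT-2 was also low, at 0.382 to 0.921 TPM. The genes highest in the deletion line were Niben101Scf01556g04013, Niben101Scf09416g03005 and Niben101Scf01374g02020, with log2 differences of -1.27, -0.59 and -0.51 between the lines. Their adjusted p was 0.0339, 0.0352 and 0.0453, and with median-ratio scaling 0.0360, 0.142 and 0.134 (limma). None of them was called between the deletion line and rxeg1. For Niben101Scf01374g02020 the lowest deletion library held 37.0 TPM and the highest library of the other genotypes 36.4 TPM.

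Within a treatment 2 libraries stand against 2, and the number of calls depended on how the spread was estimated. In mock 1 gene was called, 0.00275% of those tested, with 2499, 6.87%, at an unadjusted p under 0.05 (limma); after XEG1 0 were called, with 2576, 7.08%, at that level and a smallest adjusted p of 0.0825. With all 28 libraries in the fit, and so a spread shared with the other genotypes, 78 genes were called in mock and 135 after XEG1. The median standard error was 0.27 in these comparisons and 0.18 over both treatments. All 583 genes called over both treatments had the same sign in mock as after XEG1, which the pooled call favours. Their medians were 0.83 in mock and 0.83 after XEG1 at the higher genes, and -0.88 and -0.97 at the lower genes. The 1 mock call, Niben101Scf00607g03026, held 25.5 and 32.8 TPM in the substitution line and 0.593 TPM and a listed 0 in the deletion line. After XEG1 both lines held it, at 28.1 and 17.4 TPM in the substitution and 14.1 and 24.2 TPM in the deletion line. It was listed at 0 in 1 wild-type mock library and held 25.6 TPM in an rxeg1 mock library, so its level switched between near 0 and above 10 TPM in other genotypes too.

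The 583 genes were called on libraries of both replicate numbers, which by itself favours the same sign in each; all 583 had it. Over all tested genes the line differences within the 2 numbers correlated at 0.45 across genes, which are not independent. At the higher genes the median line difference was 0.93 in replicate 1 and 0.75 in replicate 2, and at the lower genes -0.86 and -0.98. Within replicate 1 alone 5.81% of tested genes were called, 1000 higher (2.75%) and 1113 lower (3.06%) (limma). Within replicate 2 alone it was 1.78%, 69 higher (0.19%) and 579 lower (1.59%) (limma). The spread came from differences between mock and XEG1 libraries of the same line and number, over all 8 libraries. It holds no difference between replicates, so these counts, and the test between the numbers that follows, take mock and XEG1 libraries as replicates. The line difference itself differed between the numbers at 3 genes, 0.00825%: Niben101Scf03964g04025, Niben101Scf08675g00008 and Niben101Scf13694g00024, each listed at 0 in both libraries of at least 1 line and number and at 10.4 to 20.7 TPM in the rest of the 8.

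No gene was called for a different response to XEG1 between the lines. The interaction, the XEG1 change in the substitution line minus that in the deletion line, gave 0 calls, with an unadjusted p under 0.05 at 263 genes, 0.723% of those tested, and a smallest adjusted p of 0.950 (limma). Its median standard error was 0.38, about as large as the smallest line difference called, 0.43, so the missing calls do not show that the responses were alike. The XEG1 change over both lines gave 0 calls too, with 1177 genes, 3.24%, at that unadjusted level and a smallest adjusted p of 0.158. Both tests take mock and XEG1 libraries of the same line and number as independent, although these were alike. That tends to overstate the spread of an XEG1 change and so to lower the number of calls. Neither contrast was examined with the estimated correlation.

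The genes that respond in wild type give lists whose XEG1 change comes from wild-type libraries, outside the comparison. Their spread was estimated over all 28 libraries, which include the 8 compared. Genes of small spread can therefore enter a list and be called between the lines more readily. This can raise the share called in both lists. In wild type 4379 genes rose (11.9% of the genes tested in the fit of all libraries) and 13403 fell (36.4%) after XEG1, and 4013 and 13360 of them passed the filter in the 8 libraries. Among the risen genes that passed, 95 differed between the lines, 2.37% against 1.6% of all tested genes, 5 higher (0.125% against 0.385%) and 90 lower (2.24% against 1.22%) in the substitution line. Their median line difference was -0.15, against -0.04 over all tested genes. With median-ratio scaling, which also redefines the list to 7662 tested genes, the median was -0.073 against -0.0045, and 36 genes were called, 4 higher and 32 lower. With the estimated correlation 0 of the risen genes were called. Without 1 library the count was 0 when it was mock replicate 2 of the substitution line or either XEG1 library of the deletion line, and 2 when it was XEG1 replicate 1 of the substitution line. It was 24, 25 and 37 without XEG1 replicate 2 of the substitution line, mock replicate 2 of the deletion line and mock replicate 1 of the substitution line. Among the fallen genes that passed, 285 differed, 2.13%, of which 49 were higher (0.367%) and 236 lower (1.77%), with a median of -0.04. The share higher was near that of all tested genes. The estimated correlation left 1 of these calls, Niben101Scf14771g01015, and median-ratio scaling, with 6276 tested genes in the list, gave 1 higher and 49 lower. Leaving out the same 4 libraries gave 4 to 9 calls, and leaving out the same other 3 gave 56 to 109. Without mock replicate 1 of the deletion line, more risen and more fallen genes were called than with all 8 libraries. In mock, the risen genes held 6.44% and 5.73% of TPM in the substitution line and 7.15% and 7.18% in the deletion line. After XEG1 they held 7.22% and 7.24% in the substitution line and 7.51% and 8.70% in the deletion line, so the substitution line was lower in each pair of groups, without overlap.

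The 5 risen genes that were higher in the substitution line were Niben101Scf01649g04003, Niben101Scf01481g01006, Niben101Scf03891g01004, Niben101Scf02774g01003 and Niben101Scf06382g00006, the last 3 named because the count is 5. Niben101Scf01649g04003 held 31.0, 24.5, 33.2 and 22.1 TPM in the substitution line and 6.65, 10.9, 8.20 and 11.8 TPM in the deletion line, in the order mock 1, mock 2, XEG1 1 and XEG1 2, a log2 difference of 1.48 (SE 0.20, adjusted p 0.0218, limma; adjusted p 0.132 with the estimated correlation). The other 4 differed by 0.69 to 1.36, and their adjusted p with the estimated correlation ran from 0.206 to 0.443. Niben101Scf01481g01006 also lost its call with any 1 library left out, with an adjusted p of 0.0519 to 0.142. Among the risen genes that were lower, Niben101Scf03309g04010 followed Niben101Scf04053g02006 with a log2 difference of -2.14 (SE 0.28, adjusted p 0.0202, limma; adjusted p 0.179 with the estimated correlation). Its levels were 5.43, 2.56, 4.82 and 3.33 TPM in the substitution line and 11.005, 19.0, 26.5 and 32.0 TPM in the deletion line. Of the genes that fell in wild type, Niben101Scf10363g00006 was higher in the substitution line by 1.78 (adjusted p 0.0160; 0.137 as adjusted p with the estimated correlation) and Niben101Scf02569g00027 lower by a log2 difference of -2.17 (adjusted p 0.0271; 0.247 as adjusted p with the estimated correlation and 0.0589 with median-ratio scaling), beside the fallen genes Niben101Scf01240g10024 and Niben101Scf01926g00002 described above.

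For the 100 genes that rose most in wild type, a list chosen after seeing the data, both lines had a median change above 0. Their wild-type log2 changes ran from 5.39 to 9.21, with a median of 6.21. The median change was 0.74 in the substitution line, 0.29 in the deletion line and 0.19 in rxeg1. The change was above 0 at 90 of the 100 in the substitution line and at 77 in the deletion line, and it was larger in the substitution line at 88. Among the 51 that passed the filter it was larger in the substitution line at 48, 94.1%. The filter is a mean over the same 8 libraries, so a gene low in mock could pass through high XEG1 libraries of the substitution line. That favours a larger change there, so the 94.1% is a description only. The share with a larger change in the substitution line was 54.9% of the risen genes that passed and 43.2% of all tested genes. Only 51 of the 100 passed the filter, and 0 of these were called for the line difference or the interaction, with 10 at an unadjusted interaction p under 0.05.

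Summed over the 100 genes, the substitution line held 321 and 163 TPM in mock and 1085 and 835 TPM after XEG1. The deletion line held 267 and 191 TPM in mock and 272 and 601 TPM after XEG1. Both XEG1 libraries of the substitution line were above both of the deletion line, while the mock libraries overlapped. Between numbers the deletion line differed, with little change in replicate 1 and a higher sum after XEG1 in replicate 2. The sums after XEG1 in ΔCT-2, 1009 and 827 TPM, were close to those of the substitution line, and wild type reached 44647 and 44433 TPM. ΔCT-1 held 214 and 141 TPM in mock and 316 and 530 TPM after XEG1, below the substitution line after XEG1. The sobir1/sobir1-like knockout held 256 and 491 TPM in mock and 500 and 793 TPM after XEG1. The rxeg1 knockout held 255 and 277 TPM in mock and 394 and 423 TPM after XEG1. Higher sums after XEG1 were thus also found in both knockouts, and 1 sobir1/sobir1-like library came near the 835 TPM of the substitution line. Niben101Scf00354g01012, which rose most in wild type among the genes tested here, held 1.38 and 0.129 TPM in mock and 4.16 and 2.13 TPM after XEG1 in the substitution line. In the deletion line it held 0.049 and 0.230 TPM and then 0.072 and 0.169 TPM, against 670 and 769 TPM in wild type after XEG1. Its interaction was 1.32 (SE 0.57, unadjusted p 0.0511, adjusted p 1.0, limma), so a different response was not shown for it.

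**Figure D5:**
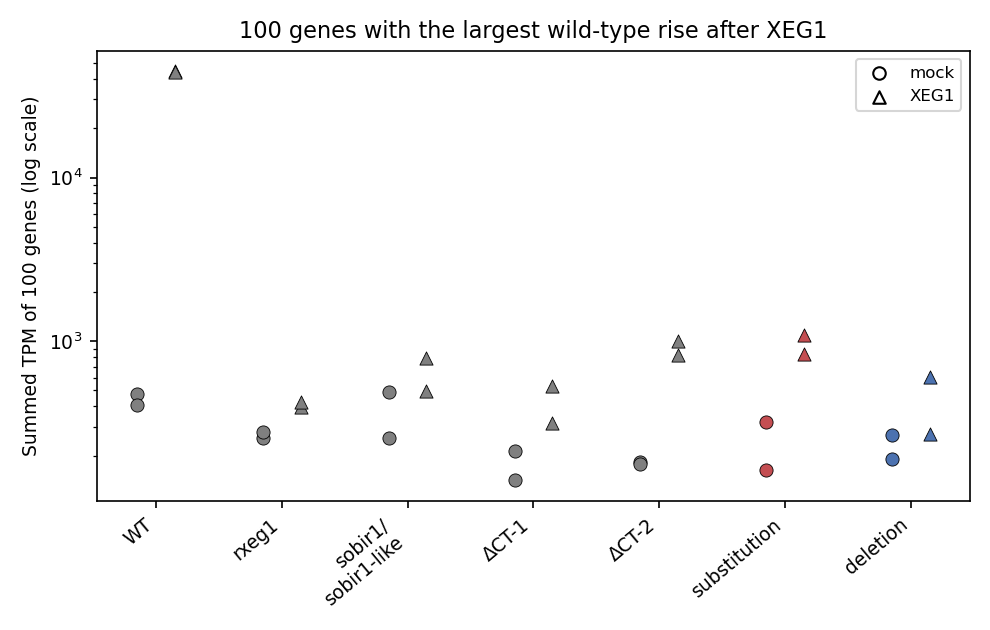
Summed TPM, on a log axis, of the 100 genes that rose most in wild type, in each of the 28 libraries; circles are mock and triangles XEG1, red the substitution line and blue the deletion line. After XEG1 the substitution line (835 and 1085 TPM) lies above the deletion line (272 and 601 TPM), and both lie far below wild type.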

How the data were processed

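Libraries were made from 1.0 µg of total RNA with an MGIEasy kit, per the labels' protocols; HISAT2 2.0.4 is named in the submitters' processing notes, while build, annotation and quantifier are not named in the sources used here. The authors deposited TPM per gene and library, summing to 1e+06. Values were analysed as log2(TPM + 1) for genes averaging 1 TPM or more in the 8 libraries, with limma 3.58.1 in R 4.3.3 (mean-variance trend, robust shrinkage with statmod 1.5.0) and Benjamini-Hochberg adjustment over all tested genes. The line difference used treatment as covariate (5 residual degrees of freedom), the contrasts within treatments 4 group means, and wild-type lists and rxeg1 comparisons 14 group means of 28 libraries. How often the line-difference test calls genes wrongly when libraries of the same line and number correlate, here estimated at 0.58, was not tested. Named genes were, per comparison, the 2 called genes with the widest difference in each direction, given a mean log2 level above 1, no listed 0 and no overlap, plus genes listed at 0 in 1 line; others are stated as such or were ranked by their position beyond all other libraries. Members and lists were chosen with earlier results of these data known. Lists by function were not used, since identifiers came without names. Replicate numbers were not treated as pairing samples. Figures used matplotlib 3.10.9.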

Additional observations from a re-analysis of the deposited data

How the results depend on the processing

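The number of line-difference calls was within 1.5 times of 583 with a pseudocount of 0.1 (550), a minimum mean of 5 TPM (699) and no robust shrinkage (564). It was 138 without a filter on low values, 159 with median-ratio scaling, 249 with an absolute log2 difference of at least 1 and 2134 with all 28 libraries in the fit. It was 2113 in replicate 1 and 648 in replicate 2 alone, an alternative added after the data were examined, and 8 to 733 with 1 library left out. Lower genes were the majority of calls in each of these fits, though those in replicate 1 or 2 alone hold no spread between replicates. Deviations of libraries with the same number correlated across genes at 0.50 and 0.54 within a line and at 0.32 to 0.48 between lines; 2 numbers do not show a pairing. An additive replicate block gave 3057 calls, which contain all 583, and 105 in mock, 319 after XEG1 and 5 for XEG1 over both lines. A replicate block within the line, with an estimated correlation, left 1 call and averaging left 0. Mock calls were 0 with a pseudocount of 0.1, 3 with median-ratio scaling, 78 with all libraries and 0 to 30 with 1 left out. XEG1 calls were 5 with a pseudocount of 0.1, 135 with all libraries and 0 to 5 with 1 left out. The interaction had 0 to 4 calls with 1 library left out and 0 under every other alternative run. XEG1 over both lines had 1 call without a filter, 3 with all libraries and 0 to 2 with 1 left out. Genes called against rxeg1, in alternatives added after the data were examined, were 767 for the substitution line and 0 for the deletion line with a replicate block within the genotype and an estimated correlation, and 1639 to 3871 and 2 to 8 with 1 library left out. The median of the risen list ran from -0.20 to -0.10 and that of the fallen list from -0.079 to -0.0014 with 1 library left out. Over 20 named genes and their alternatives, 375 values in all, 0 reversed in sign and 170 lost their call. Where a group was left with 1 library, it was assumed to vary like the others. TPM keep no depth, so limits from depth cannot be given.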
